A study of Mus musculus with 8 samples.

Results

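The 9 genes described here, Nr1d1, Nr1d2, Rora, Bhlhe40, Bhlhe41, Dbp, Tef, Hlf and Nfil3, encode transcription factors of the stabilising loops and the output of the circadian clock. They were chosen by gene symbol, with earlier results of these data known, and 11 of the 22206 probe sets on the arrays carried one of these symbols. Of the whole table, 19572 probe sets had 1 gene symbol, for 19505 genes. Rora had 3 probe sets and each of the other genes had 1, and all 11 passed the filter on low values. Expression was measured on 1-colour Affymetrix arrays in the hippocampus and cerebral cortex of 12-week-old male mice. Exposed mice were given clothianidin, an insecticide of the neonicotinoid class and agonist of nicotinic acetylcholine receptors, at 50 mg/kg/day for 2 weeks, and control mice the vehicle, 1% DMSO, over the same time. The submitters give that dose as one with no observed adverse effect. The 8 arrays formed 4 groups of 2, namely exposed (CLO50) hippocampus, control (Ctrl) hippocampus, exposed cortex and control cortex. Exposed arrays carry the numbers 3 and 6 in their labels, and control arrays the numbers 1 and 6. The labels do not state the strain, or that arrays of a group came from separate animals, so the p-values measure sample spread only, part or all of which may be technical. No clock time of dissection is given in the sources used here.

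In the mammalian clock, BMAL1 (Arntl) and CLOCK bind E-box elements and drive the Per and Cry genes, whose proteins repress BMAL1 and CLOCK in turn. In a second, stabilising loop, the nuclear receptors REV-ERB alpha and beta (Nr1d1, Nr1d2) repress Arntl and the receptor ROR alpha (Rora) activates it, all through the same response element, while DEC1 and DEC2 (Bhlhe40, Bhlhe41) repress at E-boxes. Output runs through D-box elements, where DBP, TEF and HLF activate transcription and NFIL3 represses it. Several of these transcripts, Dbp and Nr1d1 among them, swing widely over the day in many tissues, brain included.

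Median log2 values ran from 5.21 to 5.40 over the 8 arrays, and the Pearson correlation within pairs of replicate arrays was 0.9867 to 0.9915 over probe sets. The tissue labels were checked with marker genes: all 10 measured hippocampal neuron markers were higher in hippocampus than in cortex in both arms, by a median log2 difference of 4.15 in exposed and 4.51 in control arrays. Some arrays stood apart in markers of other tissue. Ttr, the main secreted product of the choroid plexus, was at a log2 level of 19.51 in hippocampus control 1 and 15.41 in cortex control 6, and between 4.17 and 7.76 in the other arrays. The median level of 9 choroid plexus markers was 11.55 in hippocampus control 1 and between 4.0 and 5.49 elsewhere. The median of 9 meningeal and fibroblast markers was 8.84 in hippocampus exposed 3 and 6.26 in hippocampus exposed 6. In cortex it was 8.67 in exposed 3 and 7.13 in exposed 6, and control arrays of both tissues held 7.24 to 7.69. For 9 microglial markers, exposed 3 and 6 were at 8.11 and 6.97 in hippocampus and 8.19 and 7.13 in cortex. Control arrays held 7.37 to 8.47. Fos, an activity-regulated immediate early gene, was at 11.51 in cortex control 1, against 8.67 to 9.31 in the other cortex arrays. Calls that change when these Ttr-high arrays are left out are given with both values.

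Promoters were read from RefSeq (GRCm38.p6, 250 bases before to 50 after each start) for 8 of the 9 genes, all but Bhlhe40. Both strands were searched for an E-box (CACGTG), a D-box (TTANGTAA) and the REV-ERB and ROR half-site (AGGTCA). These are the elements through which the 9 proteins act, and the search shows which of the genes carry them near their own start. Of 32851 promoters of that length, 7.15% held the E-box, 2.32% the D-box and 16.3% the half-site. Bhlhe41 and Tef held an E-box, Nr1d2 and Nfil3 a half-site, and none of the 8 genes held the D-box letters in this window. Counted by promoter, as those shares are, 3 of 9 held the E-box, 0 the D-box and 2 the half-site, with Tef entering by 2 promoters. The windows below are written 5′ to 3′ on the gene's strand, with the motif in capitals. In Bhlhe41 (chr6:145865541-145865600, minus strand) the E-box lies 153 to 148 bases upstream of the start. The windows of Tef belong to 2 start sites, with the E-box 127 to 122 bases upstream at chr15:81802519-81802578 and 138 to 133 bases upstream at chr15:81811249-81811308, both on the plus strand. In Nr1d2 (chr14:18239151-18239210, minus strand) the half-site lies 77 to 72 bases upstream. In Nfil3 (chr13:52981040-52981099, minus strand) it lies 12 to 7 bases upstream and reads in reverse, as TGACCT. A match describes letters only, and no binding was measured.
Bhlhe41: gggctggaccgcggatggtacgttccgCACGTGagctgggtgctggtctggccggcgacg
Tef, first window: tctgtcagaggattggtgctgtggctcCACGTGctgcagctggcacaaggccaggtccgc
Tef, next window: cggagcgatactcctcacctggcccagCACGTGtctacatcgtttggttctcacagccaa
Nr1d2: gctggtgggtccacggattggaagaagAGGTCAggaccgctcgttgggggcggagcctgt
Nfil3: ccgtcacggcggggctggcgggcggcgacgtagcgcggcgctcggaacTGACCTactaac

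The first comparison asked whether exposure altered these transcripts in the hippocampus. Both exposed arrays lay above both control arrays for 7 of the 9 genes: the repressors Nr1d1 and Nr1d2, their counterpart Rora, Bhlhe40 and Bhlhe41, and the D-box activators Dbp and Hlf. The differences of these 7 ran from 0.41 (Bhlhe40) to 1.07 (Dbp) on the log2 scale, or 1.33-fold to 2.10-fold. Tef and Nfil3 overlapped between the groups. No gene of the 9 passed the test: with limma, 0 had an adjusted p under 0.05, against 0.00675% of all 14804 tested probe sets, and 6 had an unadjusted p under 0.05, against 5.81% of all. Over all tested probe sets, 16.7% had both exposed arrays above both controls and 14.0% had both below. The median difference of the 9 genes was 0.685 and that of all tested probe sets 0.005. The 9 genes were read from the same 4 hippocampal arrays and are not independent of one another. They were also chosen with earlier results of these data known, so the shares and medians above only describe them. In whole tissue, more cells of a type and more RNA per cell cannot be told apart.

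**Figure D1:**
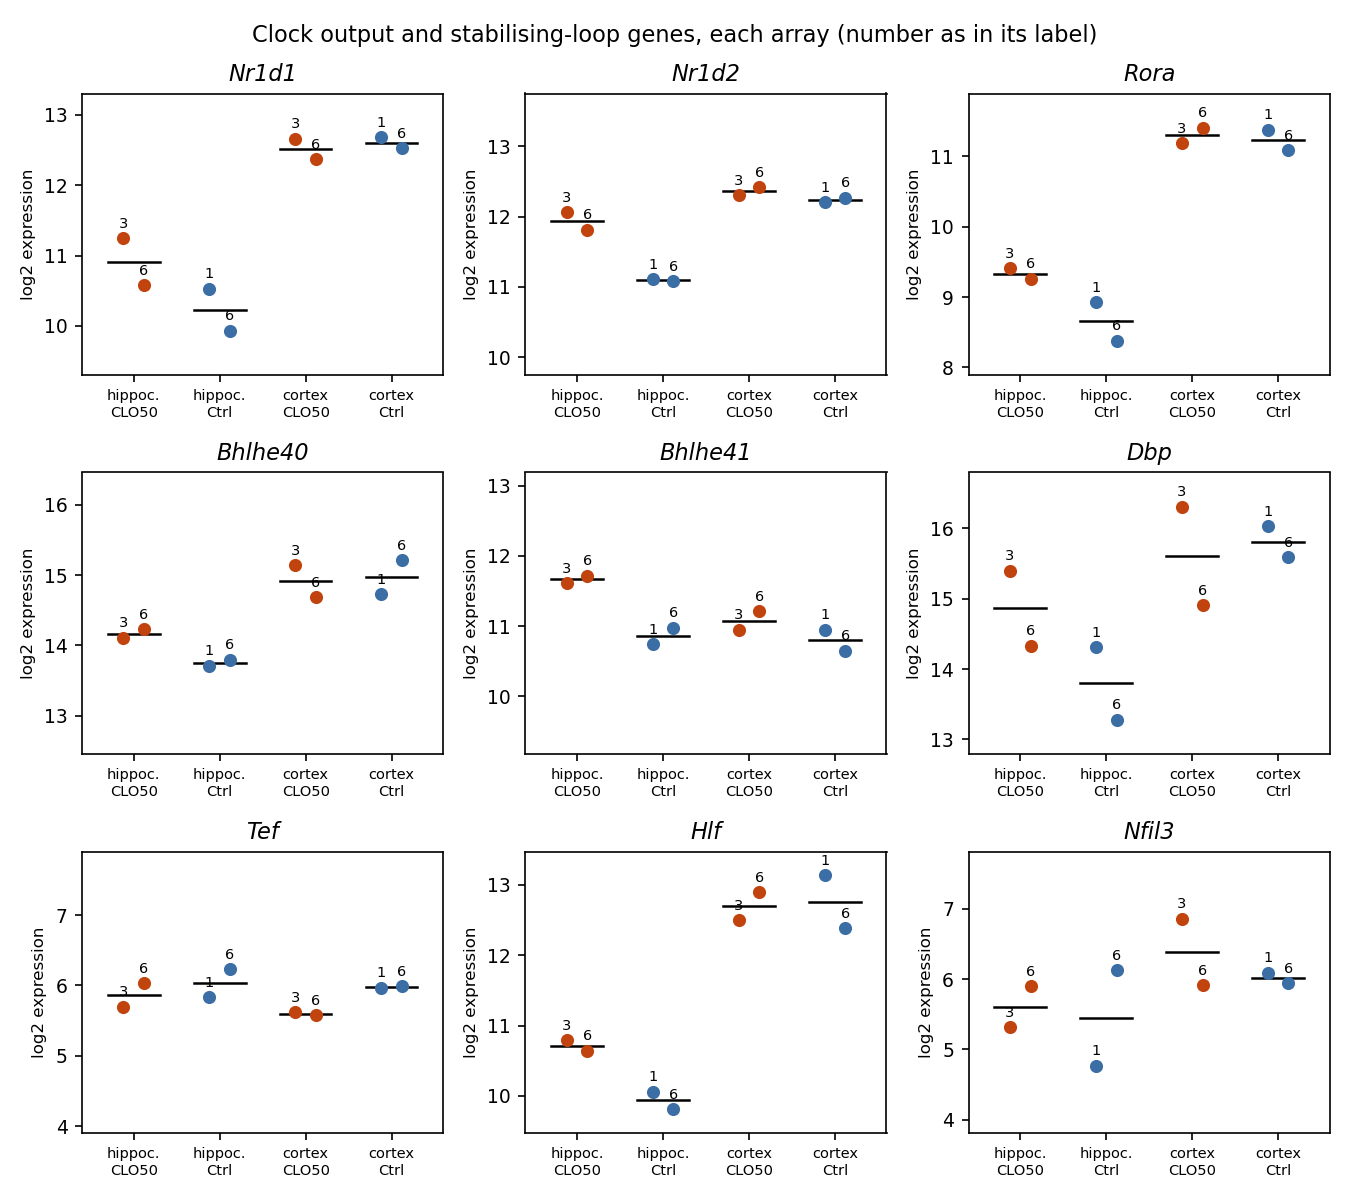
Log2 expression of the 9 genes (Rora by its highest probe set) on each of the 8 arrays, with 1 panel per gene, the 4 groups on the horizontal axis and the log2 level on the vertical axis, which spans the same width in every panel. Points are arrays marked with their label number and black lines are group means. The exposed hippocampi sit above the control hippocampi in 7 panels, all but Tef and Nfil3, and 6 genes are lower in control hippocampus than in control cortex by the test given in the text.

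Of the REV-ERB repressors, Nr1d2 had the smallest p of the 9 genes in hippocampus. Its log2 level was 12.06 and 11.81 in exposed hippocampi, against 11.11 and 11.08 in control hippocampi. The groups were well apart and the 2 controls nearly equal. The difference was 0.84 (SE 0.22, 95% interval 0.37 to 1.31), with limma adjusted p = 0.769. Nr1d1 was at 11.25 and 10.58 in exposed hippocampi, against 10.53 and 9.93 in control hippocampi. Its lower exposed array lay just above its higher control array. The difference was 0.69 (SE 0.29, 95% interval 0.06 to 1.31, limma adjusted p = 0.841), and it was 0.35 without exposed array 3.

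Rora, the activator at the same element, was at 9.41 and 9.26 in exposed hippocampi, against 8.93 and 8.38 in control hippocampi, by its highest probe set. The groups did not overlap, and the controls were spread more widely than the exposed arrays. The difference was 0.68 (SE 0.26, 95% interval 0.11 to 1.25, limma adjusted p = 0.831), and it was 0.40 without control array 6. Its next probe set, TSUnmapped00000043, did overlap, with levels of 7.27 and 8.18 in exposed hippocampi against 7.88 and 6.90 in control hippocampi, and a difference of 0.33 (SE 0.39). The probe sets of this gene thus differ in whether the arrays separate. The remaining one, TSUnmapped00000044, lay near the filter limit of 3.937, between 3.55 and 4.47 on all 8 arrays, and is given by its levels only.

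Bhlhe41 encodes the E-box repressor DEC2. Its log2 level was 11.61 and 11.72 in exposed hippocampi, against 10.74 and 10.98 in control hippocampi. The arrays of each group lay close together and the groups did not overlap. The difference was 0.80 (SE 0.24, 95% interval 0.29 to 1.32, limma adjusted p = 0.769). Bhlhe40, which encodes DEC1 and is also induced by neuronal activity and hypoxia, was at 14.11 and 14.23 in exposed hippocampi, against 13.71 and 13.80 in control hippocampi. Its groups were also apart, by less: the difference was 0.41 (SE 0.23, 95% interval -0.09 to 0.92, limma adjusted p = 0.899).

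The D-box activators differed among themselves in how their arrays separated, and the probe set of Tef gave a far lower signal than those of Dbp and Hlf. Dbp, whose transcript is a widely used marker of clock phase, was at 15.40 and 14.33 in exposed hippocampi, against 14.31 and 13.28 in control hippocampi. The lower exposed array barely exceeded the higher control array, and each group spanned about as much as the groups differed. The difference was 1.07 (SE 0.47, 95% interval 0.05 to 2.09, limma adjusted p = 0.845). It was 0.54 without exposed array 3 and 1.61 without exposed array 6. Hlf was at 10.79 and 10.64 in exposed hippocampi, against 10.06 and 9.81 in control hippocampi. These groups were apart by more than either one spanned, with a difference of 0.78 (SE 0.28, 95% interval 0.17 to 1.39, limma adjusted p = 0.82). Tef was at 5.70 and 6.03 in exposed hippocampi, against 5.83 and 6.23 in control hippocampi. Its groups overlapped, and the difference was -0.17 (SE 0.29, 95% interval -0.79 to 0.46).

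Nfil3, the repressor at the D-box, had levels of 5.32 and 5.90 in exposed hippocampi, against 4.77 and 6.13 in control hippocampi. Both exposed arrays fell between the controls, and the difference was 0.16 (SE 0.45, 95% interval -0.82 to 1.14).

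Other measures also differed between the hippocampal groups. The median level of 10 cortical neuron markers was 10.93 and 10.29 in exposed hippocampi, against 9.94 and 9.37 in control hippocampi, and 8 of the 10 were higher in exposed hippocampus, with a median difference of 0.593. Tshz2, one of these markers, was at 11.29 and 10.35 in exposed hippocampi, against 8.33 and 8.24 in control hippocampi. The median level of 10 hippocampal neuron markers was 9.22 and 9.39 in exposed hippocampi, against 9.95 and 10.09 in control hippocampi, so both exposed arrays were lower here, though 4 of the 10 genes were higher in exposed hippocampus and the median of the differences was -0.053. Prox1, a marker of dentate granule neurons in that list, was at 11.34 and 11.96 in exposed hippocampi, against 11.56 and 11.50 in control hippocampi, and its groups overlapped. Of 14 activity-regulated immediate early genes, 11 were higher in exposed hippocampus, by a median of 0.192. Ependymal markers had a median level of 4.67 and 4.78 in exposed hippocampi, against 5.83 and 5.29 in control hippocampi, and 0 of 5 were higher in exposed hippocampus, with a median difference of -0.93. Of the hippocampal arrays, choroid plexus markers were high in control array 1 alone, and without that array the differences of the 7 clock genes ran from 0.37 (Bhlhe40) to 1.6 (Dbp). The part of the neuronal, immediate early and ependymal markers, or of the meningeal and microglial ones given earlier, in these differences was not tested.

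In the cortex the same question gave small differences. They ran from -0.38 (Tef) to 0.37 (Nfil3) on the log2 scale, with a median of -0.055 for the 9 genes and -0.025 for all tested probe sets. With limma, 0 of the 9 had an adjusted p under 0.05, against 0.00675% of all tested probe sets, and 0 had an unadjusted p under 0.05, against 6.18% of all. Both exposed arrays were above both controls for Nr1d2 alone, against 17.1% of all tested probe sets, and below for Tef alone, against 21.4%.

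Nr1d2 was at 12.30 and 12.42 in exposed cortices, against 12.20 and 12.27 in control cortices. The groups were apart by little, with a difference of 0.13 (SE 0.22, 95% interval -0.35 to 0.60). Nr1d1 was at 12.66 and 12.37 in exposed cortices, against 12.68 and 12.53 in control cortices. It overlapped, with a difference of -0.09 (SE 0.29), as did Rora, the activator that competes with both, with a difference of 0.06 (SE 0.26). Rora levels were 11.19 and 11.41 in exposed cortices, against 11.38 and 11.09 in control cortices. By its probe set TSUnmapped00000043 the difference was 0.12 (SE 0.39).

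The DEC repressors were likewise mixed. Bhlhe40 was at 15.14 and 14.69 in exposed cortices, against 14.73 and 15.21 in control cortices, a difference of -0.05 (SE 0.23). Bhlhe41 was at 10.95 and 11.21 in exposed cortices, against 10.95 and 10.65 in control cortices, a difference of 0.28 (SE 0.24). In both, the groups overlapped or touched.

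Among the D-box factors in cortex, Tef was at 5.62 and 5.58 in exposed cortices, against 5.97 and 5.99 in control cortices. Both groups were tight, and the difference was -0.38 (SE 0.29, 95% interval -1.0 to 0.24, limma adjusted p = 0.863). Dbp was at 16.31 and 14.91 in exposed cortices, against 16.03 and 15.59 in control cortices, so that the exposed arrays enclosed the controls. Hlf was at 12.50 and 12.90 in exposed cortices, against 13.14 and 12.38 in control cortices, and here the controls enclosed the exposed arrays. The differences were -0.20 (SE 0.47) for Dbp and -0.06 (SE 0.28) for Hlf. Nfil3 was at 6.86 and 5.91 in exposed cortices, against 6.09 and 5.94 in control cortices. One exposed array was high and the other lay below both controls, and the difference was 0.37 (SE 0.45). Of the immediate early genes, 1 of 14 was higher in exposed cortex, with a median difference of -0.81, and their median level was 10.19 and 9.81 in exposed cortices, against 12.18 and 9.70 in control cortices.

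**Figure D2:**
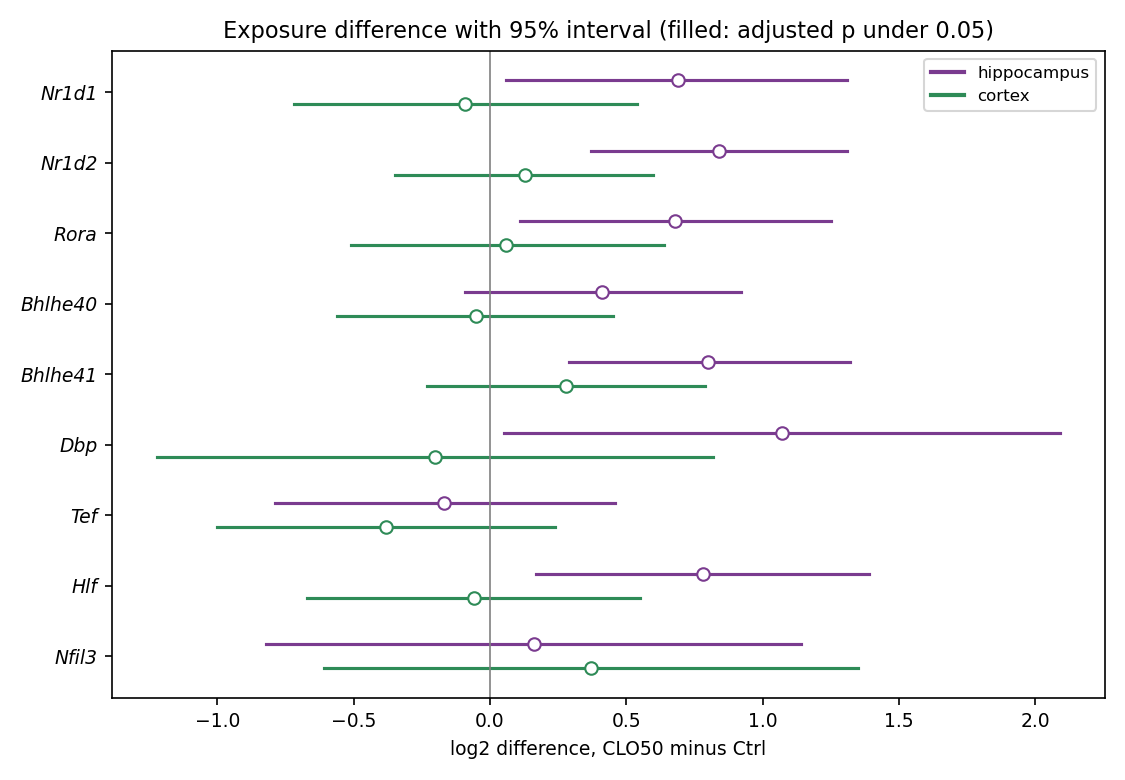
Log2 difference, exposed (CLO50) minus control (Ctrl), of the 9 genes on the horizontal axis, in hippocampus and in cortex, with lines for 95% intervals and open circles for values that did not pass an adjusted p of 0.05. All circles are open. The hippocampal values of 8 genes are above 0, up to 1.07 for Dbp, while the cortical values lie between -0.38 and 0.37.

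In every group, Dbp and Nr1d1 were lower in the array numbered 6 than in the other array. Dbp was higher in the array numbered 3 than in the array numbered 6 among exposed samples, by 1.07 in hippocampus and 1.40 in cortex, and higher in number 1 than in number 6 among controls, by 1.03 in hippocampus and 0.44 in cortex. For Nr1d1 these values were 0.67 and 0.29 among exposed samples and 0.60 and 0.15 among controls. Each of the other genes had both signs, Rora by its highest probe set. The pattern was read without a test, and its share over all probe sets was not counted. Whether arrays of 1 number came from the same animal is not stated, and no label ties a number in 1 arm to a number in the other.

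Averaged over both tissues, exposure differences were above 0 for 8 of the 9 genes and below for Tef, with a median of 0.36, against -0.005 for all tested probe sets. With limma on the means of each arm and number, 0 of 9 had an adjusted p under 0.05, against 0.00675% of all tested probe sets, and 2 had an unadjusted p under 0.05, against 5.97%. These were Bhlhe41 at 0.54 (SE 0.21, 95% interval 0.09 to 0.99, limma adjusted p = 0.826) and Nr1d2 at 0.48 (SE 0.20, 95% interval 0.04 to 0.92, limma adjusted p = 0.826). Dbp averaged 0.43 (SE 0.35), Rora 0.37 (SE 0.22, and 0.23 with SE 0.29 by TSUnmapped00000043) and Hlf 0.36 (SE 0.23). Nr1d1 averaged 0.30 (SE 0.24), Nfil3 0.27 (SE 0.26), Bhlhe40 0.18 (SE 0.20) and Tef -0.27 (SE 0.23). The intervals of these last 7 genes all included 0. Leaving out both arrays of a number moved most of them: Rora was at 0.16 and Hlf at 0.11 without control 6, Nr1d1 at 0.06 and Dbp at -0.18 without exposed 3, and Bhlhe40 at 0.04 and Nfil3 at -0.04 without control 1.

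The difference of the exposure differences, hippocampus minus cortex, was tested directly. It was positive for 8 of the 9 genes, all but Nfil3, with a median of 0.615, against 0.045 for all tested probe sets. No gene passed: 0 of 9 had an adjusted p under 0.05, against 0% of all tested probe sets, and 1 had an unadjusted p under 0.05, against 3.45%. That gene was Nr1d2, at 0.72 (SE 0.31, 95% interval 0.05 to 1.38, limma adjusted p = 0.998). The value for Dbp was 1.27 (95% interval -0.17 to 2.71), for Hlf 0.84 (-0.03 to 1.71) and for Nr1d1 0.78 (-0.11 to 1.66). With single arrays left out these ran from 0.57 (without cortex exposed 6) to 1.97 (without cortex exposed 3) for Dbp, from 0.46 (without cortex control 1) to 1.22 for Hlf and from 0.44 (without hippocampus exposed 3) to 1.11 for Nr1d1. Rora was at 0.62 (-0.20 to 1.43), Bhlhe41 at 0.52 (-0.20 to 1.25), Bhlhe40 at 0.47 (-0.25 to 1.19), Tef at 0.21 (-0.67 to 1.10) and Nfil3 at -0.21 (-1.59 to 1.17). By its probe set TSUnmapped00000043, Rora was at 0.21 (-0.98 to 1.4). With 2 arrays a group, a difference between the tissues in their exposure values was therefore not detected for any of the 9 genes. These intervals are wide enough to hold sizeable differences.

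The tissues differed far more than the arms. In control mice, 6 of the 9 genes were lower in hippocampus than in cortex at an adjusted p under 0.05, against 7.63% of all tested probe sets that were lower and 17.7% that differed in either direction. The 6 were Nr1d1, Nr1d2, Rora, Bhlhe40, Dbp and Hlf, with log2 differences from -2.82 to -1.14. The median of the 9 was -1.215, while all tested probe sets had a median of 0.10. The values behind these differences are those given above for each gene. In each of the 6 both control hippocampi lay below both control cortices, which a call of lower favours in advance. The share of all tested probe sets so separated was not counted.

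Hlf fell by 2.82 in control hippocampus (SE 0.28, 95% interval -3.44 to -2.21), 7.09-fold lower than in cortex, with limma adjusted p = 3.5e-05. Rora fell by 2.58 (SE 0.26), 5.98-fold lower, with limma adjusted p = 4.13e-05, and its probe set TSUnmapped00000043 fell by 2.36 (adjusted p = 0.00131). Nr1d1 fell by 2.38 (SE 0.29), 5.19-fold lower, with limma adjusted p = 0.00016. These 3 genes kept an adjusted p under 0.05 in every alternative tried. Dbp fell by 2.01 (SE 0.47, 4.04-fold, limma adjusted p = 0.0109), a call that was lost without cortex control 1 (-1.80, adjusted p = 0.101) or without hippocampus control 6 (-1.50, adjusted p = 0.0728). Bhlhe40 fell by 1.21 (SE 0.23, 2.32-fold, limma adjusted p = 0.00378), and its call was lost without cortex control 6 (-0.98, adjusted p = 0.0607). Nr1d2 fell by 1.14 (SE 0.22, 2.20-fold, limma adjusted p = 0.00349). Without both Ttr-high arrays, the calls of Nr1d2 (-1.12, adjusted p = 0.0765) and Bhlhe40 (-0.93, adjusted p = 0.126) were lost.

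The other 3 genes did not pass in control mice. Bhlhe41 differed by 0.06 (95% interval -0.45 to 0.57) and Tef by 0.05 (95% interval -0.57 to 0.67), and both signs turned, to -0.10 and -0.11, with arrays centred on their medians. Nfil3 differed by -0.57 (95% interval -1.54 to 0.41). Within the DEC pair the call was made for Bhlhe40 and not for Bhlhe41, and among the D-box activators for Dbp and Hlf and not for Tef. Probe sets of Tef and Nfil3 had mean signals over the 8 arrays of 5.87 and 5.86, against 15.02 for Dbp and 11.53 for Hlf. Such signals do not rank transcript amounts between genes, as the 3 probe sets of Rora alone had means of 10.13, 8.68 and 3.97. Array medians were 5.21 to 5.40, and no detection values were used. Whether signal as low as that of Tef and Nfil3 can show a tissue difference was not tested.

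In exposed mice, 3 of the 9 genes were lower in hippocampus at an adjusted p under 0.05, against 5.22% of all tested probe sets that were lower and 14.5% that differed in either direction. Hlf fell by 1.99 (SE 0.28, 3.96-fold, limma adjusted p = 0.000657). Rora fell by 1.96 (SE 0.26, 3.90-fold, limma adjusted p = 0.000445) and its probe set TSUnmapped00000043 fell by 2.14 (adjusted p = 0.00317). Nr1d1 fell by 1.60 (SE 0.29, 3.03-fold, limma adjusted p = 0.00315). The median of the 9 was -0.745, and that of all tested probe sets 0.125. Bhlhe40 missed the threshold at -0.75 (SE 0.23, limma adjusted p = 0.0529), and Dbp was at the same difference with a larger error (SE 0.47, limma adjusted p = 0.318), its arrays overlapping. For Dbp it was -1.44 without cortex exposed 6 and -0.04 without cortex exposed 3. Nr1d2 was at -0.43 (95% interval -0.90 to 0.05, limma adjusted p = 0.216). Bhlhe41 was at 0.58 (95% interval 0.07 to 1.10, limma adjusted p = 0.123), with both hippocampal arrays above both cortical ones. Tef was at 0.26 (95% interval -0.36 to 0.89) and Nfil3 at -0.78 (95% interval -1.75 to 0.20). Whether the tissue difference itself changed with exposure is the test given above, in which no gene passed. The cortical neuron markers also differed between the tissues, by a median of -2.0 in exposed and -3.468 in control arrays, and their part in the clock gene differences was not tested.

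**Figure D3:**
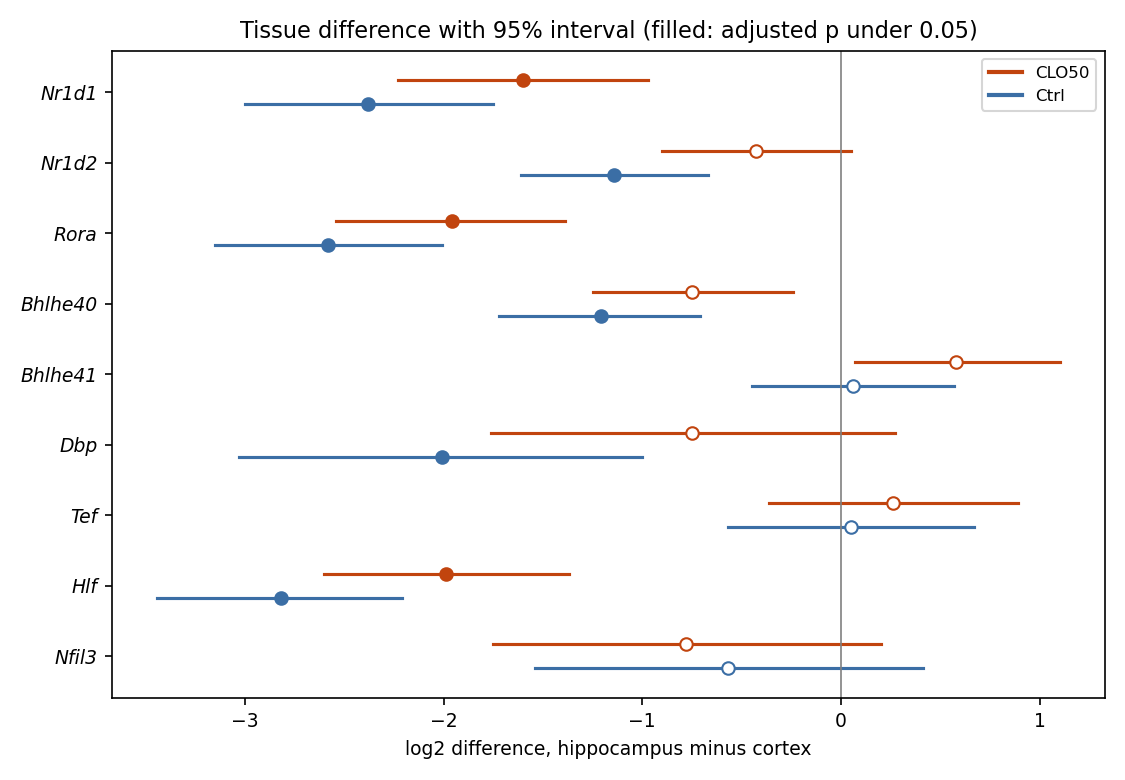
Log2 difference, hippocampus minus cortex, of the 9 genes on the horizontal axis, in exposed (CLO50) and in control (Ctrl) mice, with lines for 95% intervals and filled circles for an adjusted p under 0.05. In exposed mice 3 circles are filled (Nr1d1, Rora, Hlf) and in control mice 6, all on the lower side.

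The order of the 4 groups followed from these values. For Nr1d1, Rora, Hlf, Bhlhe40 and Dbp the group means ran, from high to low, through both cortex groups, exposed hippocampus and control hippocampus, and the cortex groups did not differ beyond their spread. For Nr1d2 the order was exposed cortex at 12.36 ± 0.08, control cortex at 12.23 ± 0.05, exposed hippocampus at 11.94 ± 0.18 and control hippocampus at 11.09 ± 0.02 (SD, n = 2 each). Bhlhe41 was highest in exposed hippocampus at 11.66 ± 0.08, followed by exposed cortex at 11.08 ± 0.18, control hippocampus at 10.86 ± 0.17 and control cortex at 10.80 ± 0.21, and the arrays of the last 3 overlapped or touched. Tef had its lowest mean in exposed cortex, 5.60 ± 0.03, and the other groups lay between 5.86 and 6.03. Nfil3 group means ran from 5.45 to 6.38, with SDs of up to 0.96, and neighbours in that order differed by no more than the larger of their SDs.

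The other genes of the clock were read for the same comparisons. Of a list of 16 core clock genes and regulators, 14 were tested and the others were not analysed here. In hippocampus 6 were higher and 8 lower with exposure, with a median of -0.095, and 0 passed in either direction, against 0.00675% of all tested probe sets, with 1 at an unadjusted p under 0.05, against 5.81%. Ciart, a repressor of BMAL1 and CLOCK, was at 0.83 (95% interval 0.04 to 1.61, limma adjusted p = 0.845). Per1, a negative limb gene that also responds to neuronal activity, was at 0.67 (95% interval -0.03 to 1.36), and Cry1 at -0.38 (95% interval -0.98 to 0.21). In cortex 5 were higher and 9 lower, with a median of -0.14, and 0 passed, against 0.00675% of all, with 1 at an unadjusted p under 0.05, against 6.18%. That gene was Csnk1e, a kinase that acts on PER proteins, at -0.50 (95% interval -0.99 to -0.01), and the next were Ciart at 0.63 and Npas2 at -0.38. Rorb, with 2 probe sets, was at -0.20 by the one that enters the counts, TC1900001231, and at -0.63 by the other, TSUnmapped00000040. Averaged over tissues, 0 of the 14 passed, against 0.00675% of all tested probe sets, and 1 had an unadjusted p under 0.05, against 5.97%. That gene was Ciart, at 0.73 (95% interval 0.19 to 1.27, limma adjusted p = 0.811). In the difference between tissues 0 passed, against 0% of all, and 0 had an unadjusted p under 0.05, against 3.45%.

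Of the core genes, 5 of 14 were lower in hippocampus than in cortex in control mice at an adjusted p under 0.05 and 0 were higher at it: Ciart was at -2.04, Npas2, a partner of BMAL1 in forebrain, at -1.96, Csnk1e at -1.65, Per1 at -1.62 and Rorb at -1.22 (-1.29 by TSUnmapped00000040). Of all tested probe sets, 7.63% were called lower and 17.7% in either direction. Limma adjusted p-values ran from 0.000141 to 0.0305. In exposed mice 4 were lower, Ciart at -1.84, Npas2 at -1.43, Csnk1e at -1.31 and Cry1 at -0.94, and 1 was higher, Csnk1d at 0.68 (limma adjusted p = 0.043), against 5.22% called lower and 14.5% in either direction among all tested probe sets. Rorb is also one of the cortical neuron markers.

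Of 8 genes known as clock-controlled or as targets of these factors, 7 were tested and the other was not analysed here. With exposure 0 passed in either tissue, against 0.00675% of all tested probe sets in each. An unadjusted p under 0.05 was reached by 1 in hippocampus, against 5.81% of all tested probe sets, and by 0 in cortex, against 6.18%. In hippocampus 4 were higher and 3 lower, with Tsc22d3, which glucocorticoids induce, at 1.06 (95% interval 0.29 to 1.84, limma adjusted p = 0.778), Cdkn1a at -1.36 (95% interval -2.87 to 0.14) and Usp2 at 0.58 (95% interval -0.16 to 1.32). In cortex 4 were higher and 3 lower, with Cdkn1a at -1.04, Tsc22d3 at 0.47 and Wee1 at -0.27. Averaged over tissues, 3 were higher and 4 lower, and 0 passed, against 0.00675% of all. An unadjusted p under 0.05 was reached there by 2, against 5.97%. These were Tsc22d3 at 0.77 (95% interval 0.14 to 1.39) and Cdkn1a at -1.2 (95% interval -2.25 to -0.15). In the difference between tissues 0 passed, against 0% of all, and 0 had an unadjusted p under 0.05, against 3.45%. Between the tissues, Fabp7, a REV-ERB target in brain, was higher in hippocampus by 1.68 in exposed and 2.00 in control mice. Cdkn1a fell by 3.71 in exposed hippocampus and fell by 3.39 in control hippocampus. Nampt was called in exposed mice, at 0.95, and Wee1 and Tsc22d3 in control mice, at -1.05 and -1.20. In all, 3 of the 7 were called in exposed mice, against 14.5% of all tested probe sets, and 4 of the 7 in control mice, against 17.7%.

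**Figure D4:**
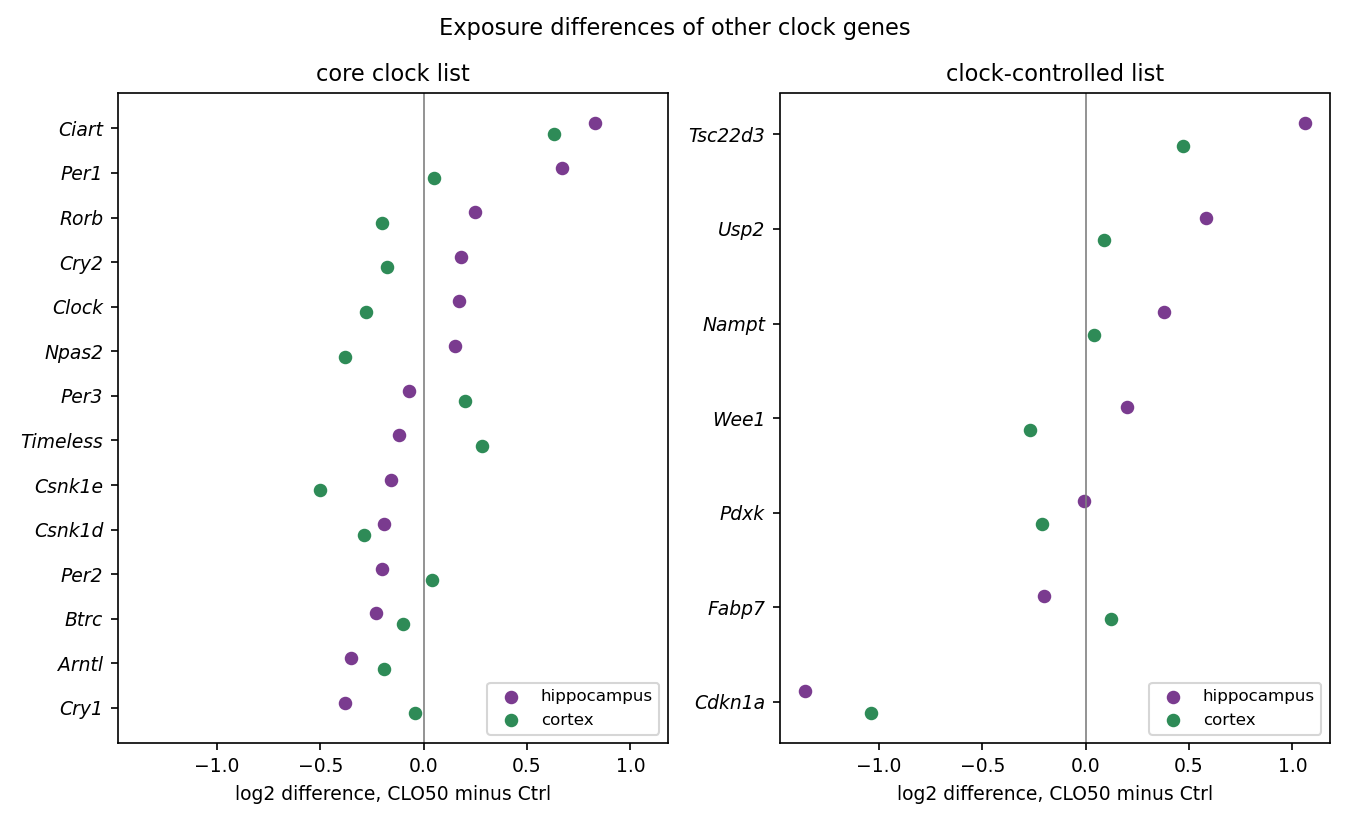
Log2 difference, exposed (CLO50) minus control (Ctrl), of the tested genes of the core clock list (left) and the clock-controlled list (right), in hippocampus and in cortex, with 1 point per gene and tissue and genes ordered by the hippocampal value. None passed an adjusted p of 0.05. Ciart and Per1 lie at the high end of the core list in hippocampus and Tsc22d3 at the high end of the other list.

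Genes with the most similar pattern were found for the 3 genes with the largest SD over the 8 arrays, by the mean absolute difference of log2 values centred on each probe set's own mean, among 13230 probe sets of other genes. For Hlf (SD 1.34) these were Mapk11, a p38 kinase gene, at 0.162 and Rcan2, a calcineurin regulator gene, at 0.172. For Nr1d1 (SD 1.12) they were Ckb, the brain creatine kinase gene, at 0.108 and Cox6a2 at 0.137. For Rora by TSUnmapped00000043 (SD 1.27) they were Tmem132d at 0.242 and Gabrd at 0.245. All 8 arrays entered this measure, so a shared tissue difference counts towards likeness.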

How the data were processed

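Total RNA (250 ng, accepted above an integrity number of 7.0 per the labels) was hybridised to 1-colour Affymetrix arrays. The deposited values are per probe set on what was taken as a log2 scale, from RMA's usual output. Their log base is not stated, so folds assume that scale, and the array maxima ran from 19.82 to 19.93. The authors had normalized the values with RMA, per the submitters' processing notes, and its version is not given in the sources used here. No detection values were used, so no floor was set, and 2 arrays a group limit the precision.

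Gene symbols came from GEO's platform annotation. A filter on the mean level removed the lowest 33.3% (values below 3.937), which left 14804 probe sets for testing. In R 4.3.3, limma 3.58.1 estimated the mean of each of the 4 groups by lmFit and moderated the variances by eBayes with trend, on 4 residual and 7.918 prior degrees of freedom. Exposure averaged over tissues was fitted to means of arrays with 1 arm and number, which may come from 1 animal (2 residual and 9.5 prior degrees of freedom). P-values are two-sided and adjusted by Benjamini-Hochberg over all tested probe sets, with a threshold of 0.05, and intervals are at 95%. Folds are given as higher over lower. The script was tested on simulated data. Rora and Rorb, which have several probe sets, are counted by the one whose identifier begins with TC.

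Every one of the 9 genes is named in each comparison. From 2 further lists, genes past the threshold and up to 3 more with the smallest p are named. Alternatives were other filters, quantile or median normalization, no trend, array weights, only the groups compared, a replicate block and arrays left out. The genes and lists were chosen with earlier results of these data known. Array values of single marker genes were picked after they were seen.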

Additional observations from a re-analysis of the deposited data

How the results depend on the processing

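Of the alternatives to single-gene values, 902 gave the same direction and side of the threshold, 38 turned the sign of a difference that had not passed, 5 lost a call and 5 gained one. The number of the 9 genes called was 0 in every alternative for the 4 exposure comparisons, and 4 to 6 for the tissues in control mice. For the tissues in exposed mice it was 3 to 4, except 5 with the replicate block, which added Bhlhe40 (-0.74, limma adjusted p = 0.0169) and Dbp (-0.74, adjusted p = 0.0148). Beyond the averaged comparison, whose means join the tissues by number, the numbers were not taken as a pairing, which no label states. Same-numbered arrays deviated together at r = 0.276 in exposed and -0.001 in control samples, where the Ttr-high arrays carry different numbers. The correlation limma estimated for arrays of 1 arm and number was 0.19. The block changed no other call of the 9 genes. Between the tissues it called 2835 probe sets in exposed and 3433 in control mice, against 2143 and 2620 without it. Over all probe sets, exposure called 0 to 2 under the other settings of filter, scaling, weights and block, against 1 or 0. Leaving out arrays moved these counts further: without hippocampus control 6, exposure in hippocampus called 56 probe sets and its difference from cortex 30, and without both tissues of control 6, 26 for the average, none of them among the 9 genes. Tissue calls over all probe sets, 2143 in exposed and 2620 in control mice, were as few as 1074 without cortex exposed 3 and 1155 without both Ttr-high arrays. Bhlhe40 also passed in exposed mice with the lowest 50% left out (-0.75, adjusted p = 0.0484), with arrays centred on their medians (-0.88, adjusted p = 0.027) and without hippocampus control 1 (-0.74, adjusted p = 0.0496). The calls lost are given with the tissue results. Without both Ttr-high arrays, signs turned for exposure in cortex of Bhlhe40 (0.18), Rora (-0.08) and its probe set TSUnmapped00000043 (-0.18), for exposure in hippocampus of Nfil3 (-0.52) and for its tissue difference in control mice (0.04). The tissue difference in control mice turned for Tef with quantile normalization (-0.08) and centring (-0.11), and for Bhlhe41 with centring (-0.10). Centring moved the median of all tested probe sets from 0.10 to -0.06 there. With single arrays left out, exposure in cortex ran from -0.30 to 0.18 for Bhlhe40, -0.90 to 0.50 for Dbp, -0.08 to 0.21 for Rora, -0.18 to 0.43 for its TSUnmapped00000043, -0.44 to 0.32 for Hlf, -0.23 to 0.06 for Nr1d1 and -0.10 to 0.85 for Nfil3. Exposure in hippocampus ran from -0.52 to 0.84 for Nfil3, -0.37 to 0.03 for Tef and -0.15 to 0.82 for TSUnmapped00000043, and kept its sign for the other 7 genes. Averaged over tissues, with both tissues of a number left out, it ran from -0.18 to 1.05 for Dbp, -0.04 to 0.57 for Nfil3 and -0.17 to 0.63 for TSUnmapped00000043. The difference between tissues ran from -0.89 to 0.47 for Nfil3 and -0.28 to 0.70 for TSUnmapped00000043. The tissue difference in control mice ran from -0.09 to 0.21 for Bhlhe41, -1.25 to 0.12 for Nfil3 and -0.15 to 0.25 for Tef. The causes of these changes were not tested, and where an array was left out 1 remained in its group and was assumed to vary like the others. The averaged comparison was not run without both Ttr-high arrays or with only the groups compared, and the difference between tissues was not run with only the groups compared. With 2 arrays a group, no group could be tested for a stray array.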
